A study of Mus musculus with 2 samples.

Results

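The 40 genes described here make, use, recycle and break down glutathione. They are the glutathione transferases of the alpha, mu, pi, theta, omega, zeta and kappa classes, the microsomal glutathione transferases, the glutathione peroxidases, the enzymes of glutathione synthesis, the reductase, the extracellular transpeptidase and the glutaredoxins. Members were chosen by gene symbol alone, among probe sets annotated with exactly 1 symbol, which gave 59 probe sets for 40 of the 18193 genes named on the array. Their levels were compared between 2 samples of epididymal white adipose tissue, a visceral depot of the mouse, from male C57BL/6 animals. The first mouse had normal chow. The second had a high-fat diet for 7 weeks. An age of 9 weeks at the start of the diet is given for both mice, and no other treatment or allele is named for either. The labels tie each sample to a single mouse and do not give the composition of the diets. Each diet had 1 array. Differences between the diets therefore carry no animal-to-animal error and no test, and all statements of direction are about these 2 samples.

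Glutathione is a small cysteine-containing peptide that cells keep at high concentration as their main soluble thiol. Peroxidases use it to reduce hydrogen peroxide and lipid peroxides, transferases join it to reactive electrophiles such as lipid aldehydes, and glutaredoxins use it to repair oxidised protein thiols or to carry iron-sulphur clusters. The oxidised form is recycled by glutathione reductase with NADPH, and many of these genes are known targets of the transcription factor NRF2. In fat, lipid peroxides and the aldehydes they release are substrates of these enzymes.

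The arrays gave 1 linear intensity per probe set for 45037 probe sets, with floors for weak signal of 28.6 under chow and 27.9 under high-fat feeding, which are each array's 40th percentile. A gene counted as measured if any of its probe sets reached the floor under either diet, which held for 14066 genes. The floor is not a detection call, and intensities of different probe sets cannot be ranked against each other. Adipocyte markers had strong signal on both arrays, with Adipoq at 8372.1 and 8718.4 and Fabp4 at 10726.6 and 11559.7. Probe sets of the same gene scattered around their gene's mean difference with a pooled SD of 0.32 log2 units over 5196 genes, and of 0.29 over the 13 members that had several. This SD covers probe error and holds no difference between animals.

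Of the 40 members, 36 were measured, and 35 reached the floor under both diets. Gpx2, Gsta2, Gsto2 and Gstt4 were below the floor on both. The members as a whole did not lean to either diet. Of the 36, 17 were higher on the high-fat diet and 19 lower, where 46.8% of all measured genes were higher and 52.9% lower. Their median difference, high-fat diet minus chow, was -0.06 log2 units, beside -0.02 over all measured genes. A smaller share of members lay within 0.5 log2 units, 77.8% against 82.8% of all measured genes. At a limit of 2-fold, 0 members were higher and 3 lower, namely Gpx3, Gsta3 and Ggt5. Among all measured genes the share past 2-fold was 1.17% upward (164 genes) and 1.35% downward (190 genes), and it was 124 and 256 genes when differences were centred on the reference genes. At 1.5-fold the members had 1 higher (Gstm6) and 6 lower (the same 3 and Gsta4, Gstt1 and Gstt3), beside 5.82% and 6.4% of all measured genes.

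**Figure D1:**
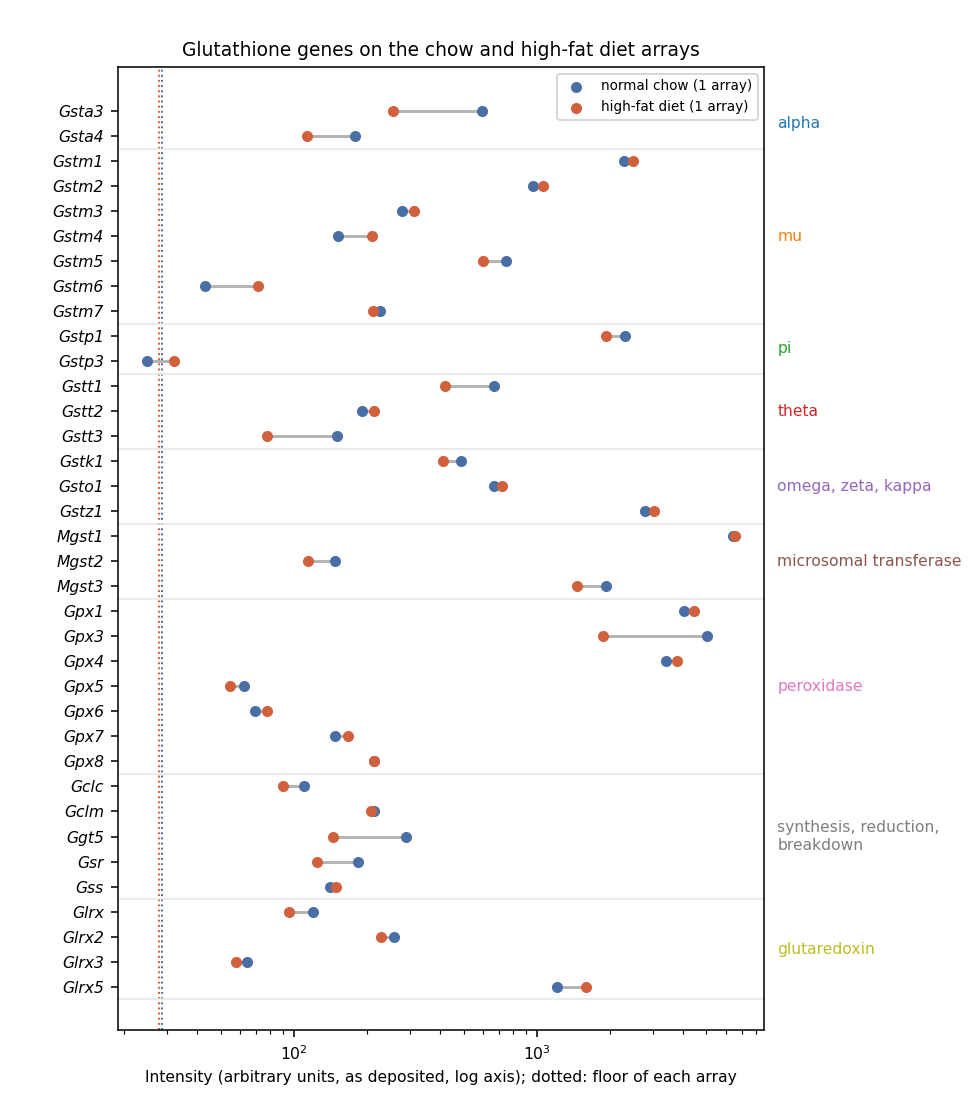
Intensity of each measured member (arbitrary units, log axis) on the chow array (blue) and the high-fat diet array (orange), grouped by role, with 1 array per diet and dotted lines at the floors of 28.6 and 27.9. The widest gaps belong to Gpx3, from 5027 to 1869.5, and Gsta3, from 596.8 to 256.3, both lower on the high-fat diet, while Mgst1 and Gpx8 nearly coincide.

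Among the peroxidases, Gpx3 was lower on the high-fat diet and the others were close to level. Gpx3 encodes the secreted, selenium-containing peroxidase of plasma, which fat also makes. Its only probe set (1449106_at) was at 5027 under chow and 1869.5 under high-fat feeding, 2.69-fold lower, so that 37.2% of the chow level was left. Counted from the most strongly lower, it had rank 39 of the 14066 measured genes. In bulk tissue, fewer cells that make a transcript and less transcript per cell cannot be told apart. The intracellular peroxidases did not share this difference. Gpx1, the selenium-containing peroxidase of cytosol and mitochondria, was at 4031.3 under chow and 4439.7 under high-fat feeding, a difference of 0.14 log2 units. Gpx4, which reduces peroxides within membrane phospholipids and protects from ferroptosis, was at 3407.5 and 3772.9, a difference of 0.15, and its other probe set differed by -0.09. For both genes the difference was smaller than the probe error of 0.20 found for genes with a mean intensity of 400 or more.

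The other peroxidases were within 0.2 log2 units of 0. Gpx7 and Gpx8, peroxidases of the endoplasmic reticulum, were at 148.4 and 167.2 and at 213.5 and 215. Gpx6, known from olfactory tissue, was at 69.5 under chow and 77.4 under high-fat feeding. Gpx5, the selenium-free peroxidase of the epididymis, was at 62.5 and 54.9. The epididymis lies against this fat pad, and of the 8 epididymis markers, Gpx5 included, 5 were measured. Their summed intensity was 217.6 under chow and 188.7 under high-fat feeding, with Lcn5 below the floor at 4.7 and 3.5. Of the 7 measured peroxidases, 5 were higher and 2 lower, and the median difference of 0.14 was between 0.01 and 0.14 under every alternative processing.

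Among the 17 measured transferases outside the microsomal family, 9 were higher and 8 lower, and the 4 that were 1.5-fold or more lower were in the alpha and theta classes. Both measured members of the alpha class, which is known for detoxifying products of lipid peroxidation, were lower on the high-fat diet. Gsta3 was at 596.8 under chow and 256.3 under high-fat feeding in its stronger probe set (1423436_at), 2.33-fold lower. Its other probe set had 148.1 and 114.7, a difference of -0.37, so the direction was shared but the size was not. With the mean of its probe sets the difference of Gsta3 was -0.79, under 2-fold. Gsta4, the transferase with high activity towards the lipid aldehyde hydroxynonenal, was at 179.6 under chow and 113.8 under high-fat feeding, 1.58-fold lower in its only probe set. Gsta2 was at 2 and 15.3, below the floor on both arrays.

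In the theta class, an evolutionarily old class that acts on small halogenated compounds among others, 2 of 3 measured genes were lower. Gstt3 was at 151.1 under chow and 77.9 under high-fat feeding, 1.94-fold lower and just short of the 2-fold limit. Gstt1 was at 666.7 under chow and 420.3 under high-fat feeding, 1.59-fold lower. Gstt2 went the other way, at 191.4 and 214.7, a difference of 0.17. Each of the 3 had a single probe set. In the RefSeq gene table the theta genes are neighbours on chromosome 10 in the order Gstt3, Gstt1, Gstt4, Gstt2, with 0 other coding genes between them. The adjacent Gstt3 and Gstt1 were the lower pair, Gstt4 was below the floor at 6.6 and 4.9, and Gstt2 stood at the far end of the row.

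Of the 7 mu class members 5 were higher, and their median of 0.14 log2 units was between 0.05 and 0.17 under every alternative processing. Gstm6 was the most strongly higher of the 36 measured members, with 43.2 under chow and 71 under high-fat feeding, 1.64-fold higher. The signal of Gstm6 was weak, and its single probe set (1422072_a_at) is of a kind that can match several transcripts of the same gene. With the floor at the 60th percentile its difference was 0.24 in place of 0.72, under 1.5-fold and below those of Gstm4 and Glrx5. Gstm4 was at 152.4 under chow and 209.7 under high-fat feeding, 1.38-fold higher. Gstm1 was at 2279.3 and 2497.2, a difference of 0.13, and its 3 other probe sets differed by 0.30, 0.26 and -0.01. Gstm2 was at 970.1 and 1065.9 and Gstm3 at 278 and 312, differences of 0.14 and 0.17. The value for Gstm3 comes from a probe set of another kind (1427474_s_at), which can match transcripts of several genes. The other probe set of Gstm3 had 1.9 under chow and 2.2 under high-fat feeding, far short of the floors. Gstm5 was lower, at 749.9 under chow and 600.2 under high-fat feeding, a difference of -0.32. Gstm7 was at 226.5 and 212.5, a difference of -0.09, with 0.05 in its other probe set.

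The 7 mu genes form an unbroken row on chromosome 3 in the RefSeq gene table, in the order Gstm5, Gstm7, Gstm6, Gstm3, Gstm2, Gstm1, Gstm4. The genes with a negative difference were the first 2 of this row, and the other 5 were all higher. This split depends on the processing, as Gstm7 and Gstm1 changed sign in some alternatives. With quantile normalization 4 of the 7 were higher and 3 lower. Genes of this class are similar in sequence, and how far probes of 1 gene also bind transcripts of another was not tested.

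The remaining soluble transferases differed little. Gstp1, the pi class enzyme that is widespread outside the liver, was at 2303.3 under chow and 1924.7 under high-fat feeding, a difference of -0.26. Gstp3, of the same class, was below the floor on chow at 24.9 and just above it on the high-fat diet at 32.2, at least 1.13-fold higher. Gstk1, a mitochondrial and peroxisomal enzyme also known as DsbA-L for its part in adiponectin assembly, was at 490.2 and 412.4, a difference of -0.25. Gstz1, which isomerises maleylacetoacetate in tyrosine breakdown, was at 2794 and 3053.7, a difference of 0.13. Gsto1, an omega class enzyme with thioltransferase activity, was at 670.2 and 723, a difference of 0.11, while its other probe set went from 368.9 to 550.5, a difference of 0.58. Gsto2 was below the floor at 11.5 and 15.7.

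The microsomal transferases are membrane proteins unrelated in sequence to the soluble ones. Mgst1, which acts in the endoplasmic reticulum and outer mitochondrial membrane, was nearly level, at 6434.6 under chow and 6551.1 under high-fat feeding. Its other probe set was below the floor, at 14.7 and 18.3. Mgst3 was at 1925 under chow and 1459.1 under high-fat feeding, 1.32-fold lower, but a weaker probe set of it, at 46.3 and 60.3, differed by 0.38, and the direction for this gene is unsettled. Mgst2, which can make leukotriene C4, was at 148.5 and 114.9, 1.29-fold lower. Over all 20 measured transferases, 10 were higher and 10 lower.

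**Figure D2:**
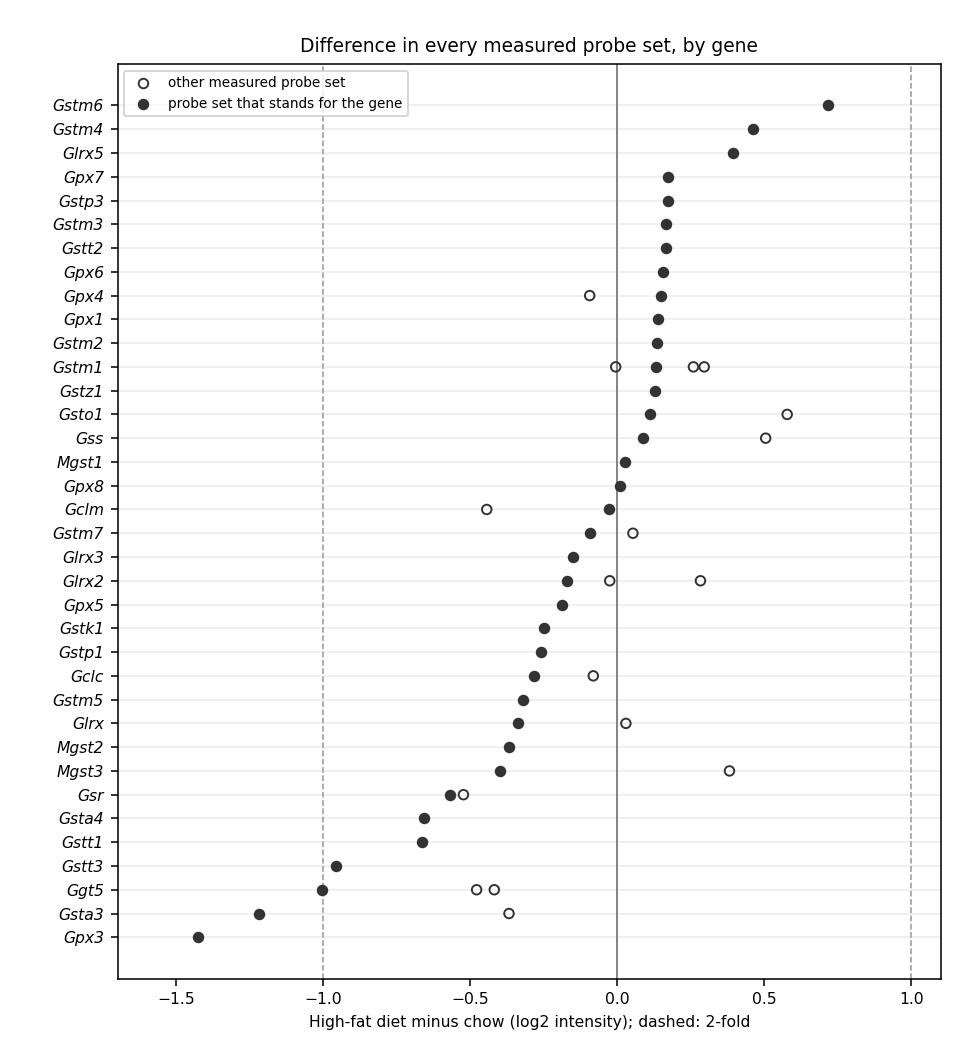
Difference between high-fat diet and chow (log2 intensity) for every measured probe set of each member, with the probe set that stands for the gene filled and others open, ordered by the filled value. Gpx3 at -1.43 and Gstm6 at 0.72 mark the ends, and of the 13 genes with several measured probe sets 6 have values on both sides of 0.

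Glutathione synthesis itself was close to level. Gclc, the catalytic subunit of the rate-limiting glutamate-cysteine ligase, was at 110.3 under chow and 90.7 under high-fat feeding, a difference of -0.28, with -0.08 in its other probe set. Gclm, the regulatory subunit, was at 213.2 and 208.8, a difference of -0.03, with -0.44 in a weaker probe set. Gss, which adds glycine in the last step, was at 141.1 and 150, a difference of 0.09, while its other probe set went from 72.4 to 102.7, a difference of 0.50. For none of the 3 did every probe set pass 0.5 log2 units in a shared direction.

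Gsr and Ggt5 were lower. Gsr, the reductase that restores glutathione from its oxidised form, was at 184.5 under chow and 124.3 under high-fat feeding, 1.48-fold lower, and its other probe set, at 170.5 and 118.6, gave nearly the same difference, -0.52 beside -0.57. Ggt5, a transpeptidase on the cell surface that cleaves extracellular glutathione and converts leukotriene C4 to D4, was at 290.7 under chow and 144.8 under high-fat feeding, 2.01-fold lower and just past the limit. That probe set (1439420_x_at) is of a kind that can share probes with other transcripts. The others, at 167.1 and 119.9 and at 52 and 38.9, differed by -0.48 and -0.42. All 3 probe sets of Ggt5 were thus lower, and only the first by 2-fold.

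The glutaredoxins included a higher member. Glrx5, which passes iron-sulphur clusters on in mitochondria, was at 1216.5 under chow and 1598 under high-fat feeding, 1.31-fold higher in its only probe set. Glrx, the cytosolic form, was at 120.2 and 95.2, a difference of -0.34, against 0.03 in its other probe set. Glrx2, of mitochondria and nucleus, had differences of -0.17, -0.03 and 0.28 in its 3 probe sets and so no shared direction. Glrx3, an iron-sulphur cluster carrier of the cytosol, was at 64.4 and 58.

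**Figure D3:**
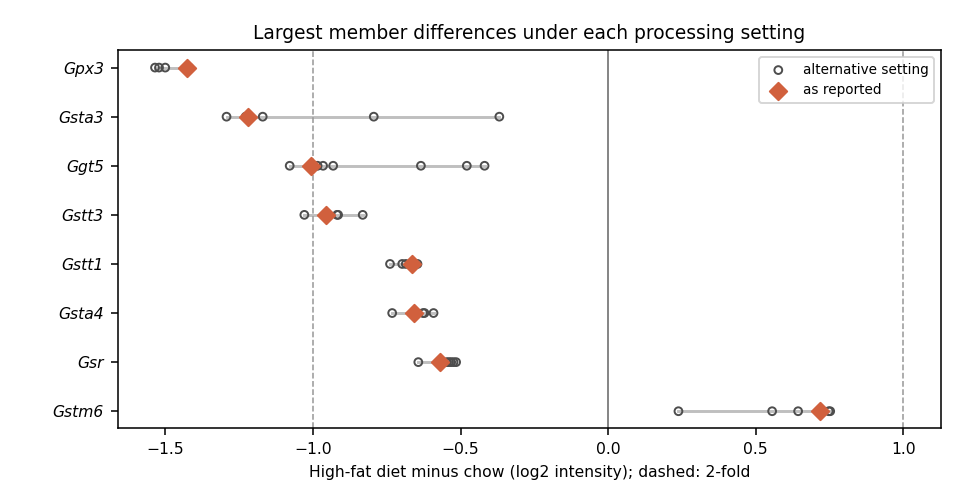
Difference between high-fat diet and chow (log2 intensity) for the 8 members that differed by 0.5 or more, as reported (diamonds) and under each of up to 9 alternative settings (open circles). All 8 keep their sign throughout, Gpx3 lies past 2-fold in every setting, and Gsta3 and Ggt5 reach down to -0.37 and -0.42. Gpx3, Gsta4, Gstt1, Gstt3 and Gstm6 have a single probe set, so settings that average or choose among probe sets cannot move them.

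Markers of other cells in the pad were set beside the lower members. Summed intensities, here and for the epididymis markers, mostly follow the strongest probe sets and include some values below the floor. They are a description only. Of the 10 hepatocyte markers, 8 were measured, 6 of them lower and 2 higher, and their summed intensity was 728.8 under chow and 314.3 under high-fat feeding. With plain probe sets only, 4 were measured, 2 higher and 2 lower, and the median of the list was 0.02 in place of -0.75. Apoa2 was at 214.2 under chow and 13.1 under high-fat feeding and Ttr at 108.7 and 28.6, while Alb, the defining marker, was at 141.5 and 121.5 and Fgb below the floor at 3 and 1.1. Alpha and theta class transferases are also abundant in liver, and the part of liver RNA in the differences of Gsta3, Gsta4, Gstt1 and Gstt3 was not tested. Of the 7 mesothelial markers 5 were lower and 2 higher, with sums of 1463.6 and 1035.8. Of the smooth muscle and pericyte markers 4 were lower and 1 higher. Myh11 was at 133 and 63.2, 2.10-fold lower, and Tagln at 377.1 and 194.6, 1.94-fold lower, while Acta2 was higher, at 1476.2 and 1866.2, and the list summed to 4005.9 and 4009.1. Macrophage markers, 5 higher and 2 lower, summed to 6361.1 and 6559, with Itgax at 0.73 log2 units and Cd163 and Mrc1 at -0.54 and -0.44. Endothelial markers, 5 higher and 1 lower (Flt1, at -0.59), summed to 1657.9 and 1751.3. Progenitor and fibroblast markers, 5 higher and 1 lower (Pdgfra, at -0.66), summed to 3574.1 and 4998.1. With reference gene centring the endothelial list had 2 higher and 4 lower, and the progenitor and fibroblast list 3 higher and 3 lower. Mast cell markers, 1 higher and 5 lower, summed to 486.3 and 404.2. Red blood cell markers, 1 higher and 2 lower, summed to 218 and 242.9. The higher sum came from Slc4a1, at 6.5 and thus below the floor under chow and at 28.3 under high-fat feeding. Slc4a1 counted as lower, at -0.02, only because its chow value was raised to the floor of 28.6. With the floor at the 20th percentile the list had 2 higher and 1 lower. The 6 measured adipocyte markers were all higher as reported, between 0.00 and 0.63 log2 units, with sums of 34339.3 and 38088.3. This count depends on the processing, and Pnpla2 was level at 4720.2 and 4720.5. With quantile normalization 3 were higher and 2 lower, and with reference gene centring 4 were higher and 2 lower. Of the 7 testis germ cell markers 2 were above the floor, on the high-fat diet array only. The part of these cells in the differences of Gpx3, Ggt5 and Gsr was not tested.

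Genes that act around the members were read from lists. In the gamma-glutamyl cycle and glutathione breakdown list, which holds the enzymes that take glutathione and its conjugates apart, 6 of 8 measured genes were lower, with a median difference of -0.32. Oplah, the oxoprolinase that returns glutamate, was at 255 under chow and 134.9 under high-fat feeding, 1.89-fold lower. Anpep, an aminopeptidase, was 1.64-fold lower and Chac2, an intracellular glutathione-degrading enzyme, 1.61-fold lower, whereas Ggt6, below the floor on chow at 18, was at 55.5 on the high-fat diet, at least 1.94-fold higher. With plain probe sets the median of this list was -0.12. Of 7 cysteine supply genes 6 were lower, and the median was -0.07. Cbs, which opens the route from homocysteine to cysteine, was at 127.9 under chow and 70.3 under high-fat feeding, 1.82-fold lower. Next in size were Ahcy at -0.20 and Slc1a4 at -0.14, and the cystine carrier Slc7a11 was at 24.5, below the floor, and 30.3.

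Of 8 genes that supply NADPH 6 were lower by small amounts, and the median was -0.16. Pgd, of the pentose phosphate pathway, was 1.24-fold higher in 4 probe sets of a shared direction, Idh1 was 1.23-fold lower, although its other probe set differed by 0.07, and Nnt, the mitochondrial transhydrogenase, was 1.20-fold lower. Of the factors that act with or against NRF2, 5 of 7 were lower, with a median of -0.14. Nfe2l2, which encodes NRF2, was at 630.7 and 570.6, Keap1, its inhibitor, at 367.8 and 319.1, and Bach2, Keap1 and Mafg had the largest differences, -0.32, -0.20 and -0.20. The probe sets of Mafg did not share a direction.

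NRF2 targets outside the members had no common direction, with 8 of 13 lower and a median of -0.12, which was -0.02 with the mean of all probe sets. Tkt, the transketolase, was at 4087.9 under chow and 2622.7 under high-fat feeding, 1.56-fold lower, Cbr3, a carbonyl reductase, was 1.54-fold lower, and Nqo1, the quinone reductase often used as a readout of NRF2, was at 74.8 and 52.1, 1.44-fold lower. Another probe set of Tkt, at 2013 and 1262, differed by -0.67, and a weak one, at 36.8 and 36.3, by -0.02. Hmox1, the inducible haem oxygenase, was at 115.2 and 116.2.

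The machinery that inserts selenocysteine, the residue at the active site of Gpx1, Gpx3 and Gpx4, had 4 genes higher and 4 lower and a median of 0.05, but 2 higher, 6 lower and a median of -0.13 with the mean of all probe sets, and a median of -0.03 with reference gene centring. Eefsec, the elongation factor for selenocysteine, was 1.51-fold higher from a weak 43.3, Pstk 1.26-fold higher, and Trnau1ap 1.44-fold higher in a probe set that another of the gene opposed at -0.72. Other glutathione-dependent enzymes had a median of 0.05, with 7 of 12 higher, but the median was -0.02 with reference gene centring and -0.07 with plain probe sets. Ltc4s, which joins glutathione to leukotriene A4, was at 640.3 under chow and 1089.6 under high-fat feeding, 1.70-fold higher, while Ethe1 and Ptges2 were 1.35-fold and 1.32-fold lower. In the transport list, 4 of 6 were higher with a median of 0.13, and with plain probe sets the median was -0.05. Abcc3, an exporter of conjugates, was at 82 under chow and 157.9 under high-fat feeding, 1.93-fold higher, while Abcc1 and Abcc4, of the same family, were 1.37-fold and 1.27-fold lower.

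Antioxidant enzymes that do not depend on glutathione were split, with 5 of 10 higher and a median of 0.01. Sod3, the extracellular superoxide dismutase, was at 1483.5 under chow and 2904.4 under high-fat feeding, 1.96-fold higher, with 0.92 log2 units in its other probe set. Sod3 and Gpx3 both encode secreted antioxidant enzymes, and they differed in opposite directions. Catalase (Cat) was 1.25-fold higher, with its other probe set in the same direction, and Sod2, the mitochondrial dismutase, was 1.25-fold higher with 1 of 4 probe sets at -0.34. In the 9 lists 0 genes above the floor on both arrays were 2-fold or more different in the probe set that stood for them. The value for Ggt6 is a lower bound. Weaker probe sets of Ptges and Abcc5 did pass 2-fold. For Ptges, 1 went from 96.3 under chow to 29.3 under high-fat feeding, a difference of -1.72, beside -0.40 and -0.81 in its others. For Abcc5, 1 went from 82.8 to 18.7, the latter short of the floor, while the probe set that stood for it differed by 0.10.

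**Figure D4:**
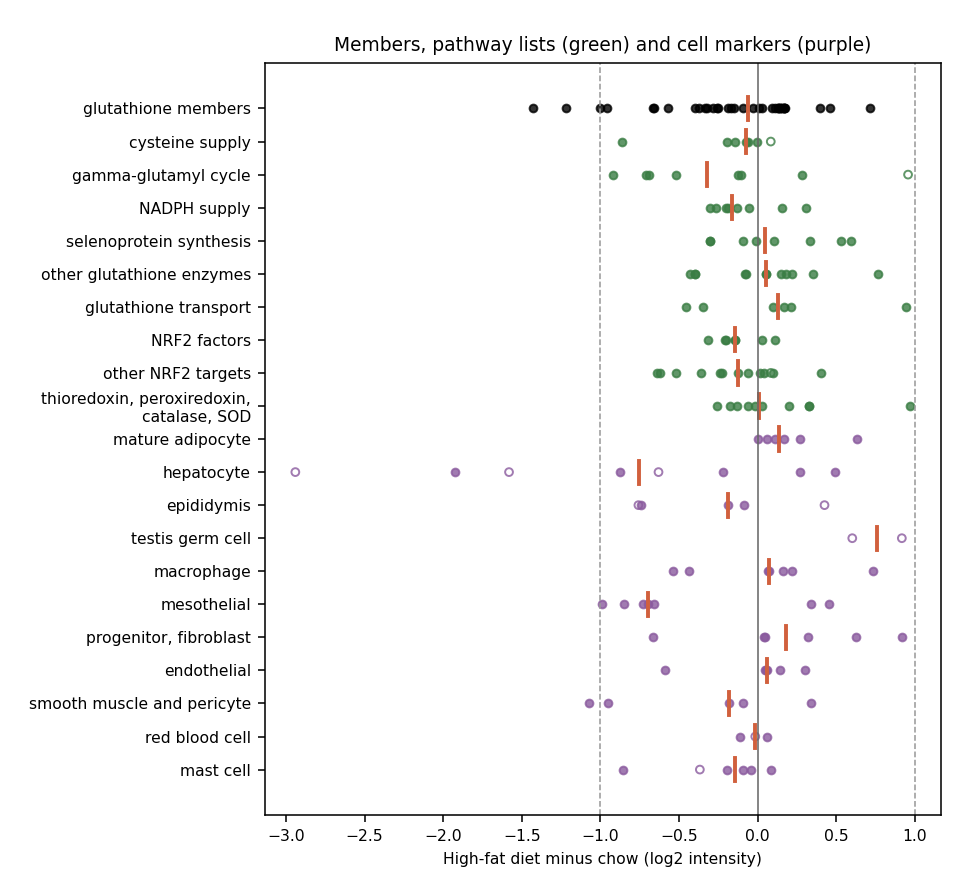
Difference between high-fat diet and chow (log2 intensity) for the members (black), the 9 pathway lists (green) and the 11 marker lists (purple), with an orange bar at each median and open circles for genes above the floor on 1 array only. The members reach from -1.43 to 0.72 around a median of -0.06, and the hepatocyte and mesothelial medians lie at -0.75 and -0.70, the former at 0.02 with plain probe sets only and at -0.31 at the probe sets of smallest difference.

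Promoter sequence was read from RefSeq windows of 250 bases before to 50 after each annotated start (GRCm38.p6) to see which members carry the core of the antioxidant response element, the site NRF2 binds, here TGACNNNGC on either strand. Of the 40 members, 35 had a window, and Gclc, Ggt5, Gsr, Gsta4 and Gstt2 had none. The core was present for 5 of the 35, or 14.3%, beside 14.0% of all 27025 genes with a window. These 5 stretches are shown because they hold that core, which stands in capitals, and run 5′ to 3′ on the gene's own strand; in Gclm and Mgst1 the capitals read the core's reverse complement.
Gsta3: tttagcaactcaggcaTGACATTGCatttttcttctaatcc
Gclm: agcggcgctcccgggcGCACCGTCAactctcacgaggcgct
Gstm5: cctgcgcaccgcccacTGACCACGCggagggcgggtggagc
Gstm7: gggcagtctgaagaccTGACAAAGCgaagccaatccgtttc
Mgst1: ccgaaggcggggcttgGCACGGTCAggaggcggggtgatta
The stretches lie at chr1:21240448-21240488 on the plus strand for Gsta3, chr3:122245407-122245447 on the plus strand for Gclm, chr3:107895796-107895836 on the plus strand for Gstm5, chr3:107931719-107931759 on the minus strand for Gstm7 and chr6:138140455-138140495 on the plus strand for Mgst1.

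The 5 genes with a core did not differ alike in size, and 4 of them were lower. Their median was -0.09, beside 0.10 for the 26 measured members with a window but no core, of which 11 were lower. This contrast was not tested, and Gclm, Gstm7 and Mgst1 changed sign in some alternatives. Gsta3 was 2.33-fold lower, Gstm5 1.25-fold lower, and Gstm7, Gclm and Mgst1 were within 0.1 log2 units, while Gpx3, the most strongly lower member, has no match in its window. A match is a description of these letters and shows no binding, and a site outside the window would be missed.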

How the data were processed

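Total RNA (10 µg, Trizol) was labelled with biotin as cRNA and hybridised to an Affymetrix array, per the labels. The authors deposited 1 linear intensity per probe set and array. The summary method and the scaling are not stated in the labels. Means after trimming 2% at each end were 99.6 on both arrays, so a shift of all transcripts together could not be seen. Chow values spanned 0.1 to 10726.6 and high-fat diet values 0 to 11559.7. Precision is limited by having 2 arrays.

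Of 45037 probe sets, 34945 had 1 gene symbol in the 2016 platform annotation, 932 had several and 9160 had none here. Of the former, 34741 matched the RefSeq table by gene ID. Values under the floor (40th percentile) were raised to it before log2. The measured probe set with the highest mean log2 intensity stood for its gene. No test was possible with 1 array per diet, and genes were counted at 2-fold. Members and lists were chosen with earlier results of these data known. Every member is accounted for, and up to 3 genes above the floor on both arrays were named from each pathway list by size; others were chosen after their values were seen. Calculations used Python 3.11.15, pandas 2.3.3, numpy 2.4.6, scipy 1.17.1 and statsmodels 0.14.6, and were tested on simulated data. Alternatives changed the floor, the offset, the probe set rule, the probe set types, the scaling and the fold limit.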

Additional observations from a re-analysis of the deposited data

How the results depend on the processing

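The count of members 2-fold or more lower was 3 as reported, 1 (Gpx3) with the mean of all probe sets and 1 (Gpx3) with each gene at its probe set of smallest difference, as these settings give weight to weaker probe sets of Gsta3 and Ggt5. At a 1.5-fold limit 6 members were lower and 1 higher, where 6.4% of all measured genes were lower and 5.82% higher. Ggt5 passed 2-fold in 3 of 9 alternatives, Gsta3 in 7, Gpx3 in 9, and Gstt3 only with reference gene centring. Gpx3 and Gstt3 had a single probe set, unlike Ggt5 and Gsta3, so settings that average or choose among probe sets could not move them. The median of the members was between -0.15, with plain probe sets only, which left 29 members, and 0.0021, at the probe sets of smallest difference. Of the 36 measured members 27 had a single sign throughout, the 8 with differences of 0.5 or more among them, and 9 changed sign in some setting, none of them a 2-fold member. Over all genes, the counts of 2-fold higher and lower genes were 608 and 727 with the floor at the 20th percentile and 90 and 66 at the 60th. No paired analysis was possible because each diet had 1 array.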

Other observations

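Probe sets annotated with several genes were left out of all comparisons, and 5 of them name a member. Of the 4 shared by Glrx3 and Gm12669, the stronger pair was at 329.1 under chow and 375.6 under high-fat feeding and at 247.2 and 291, differences of 0.19 and 0.24. These values have the opposite sign to the -0.15 of the probe set that names Glrx3 alone. A weak one of the 4 was at 50.3 and 26.6, the latter below the floor, and the last was below the floor on both arrays. The probe set shared by Gsta1, Gsta2 and Gm3776 had weak values of 25.5 and 21.8, under both floors.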
